A study of Mus musculus with 9 samples.

Results

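The immediate early and dissociation response genes followed here are 34 genes chosen by symbol from the 45664 rows of a raw count table of mouse microglia. They were read in all 9 libraries, and 32 of the 34 passed the filter on low counts and were tested. The other two, Fosb and Hspb1, were too low. Each library held RNA of microglia, the brain's own macrophages, from the bilateral visual cortex of 1 male C57BL/6 mouse. The animals came from 3 litters, and no source used here ties a mouse to its litter. The saline group (5 mice) was injected under the skin of the back 2 times a day with saline from postnatal day 4 to day 9. The ethanol group (4 mice) received 20% v/v ethanol in the same period, 2 injections a day 2 h apart at 1.8 g/kg each, for 3.6 g/kg a day. All mice were untreated afterwards and were killed as adolescents, so every library is from an animal that was handled and injected as a pup. Older mice were at day 35 or 36 (4 mice, 2 saline and 2 ethanol) and younger mice at day 29 or 30 (5 mice, 3 saline and 2 ethanol). Brains were perfused cold, kept on ice, dounced and cleared of myelin on beads, and the CD11b+ CD45low cells that excluded propidium iodide were collected by flow sorting.

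Immediate early genes are switched on within minutes of a stimulus and need no new protein for it, because the factors that bind their promoters, such as serum response factor and CREB, are already present and wait for phosphorylation by kinases of the ERK, JNK and p38 families. Many of them encode transcription factors themselves, and others encode the phosphatases and mRNA decay proteins that end the same signal. Their mRNAs are short lived, so their level reflects recent events in the cell. Heat shock factor drives a separate early response, the chaperones. Cutting, digesting and sorting brain tissue is known to raise both kinds of gene in microglia, which is why they are often read as a record of handling as well as of state in the living animal. In bulk samples a lower level can come from fewer cells of a type or from less RNA per cell, and these cannot be told apart.

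The libraries held 12816198 to 28859244 counts, and levels below are in CPM, the count relative to library size, with libraries scaled by TMM, edgeR's factor for composition, so a CPM compares 1 gene between mice but not 2 genes of different length. All 8 microglia markers had counts in every library, and their summed level was 52153 to 61429 CPM. Summed neuron markers reached 5.38 to 91.1 CPM and summed astrocyte markers 4.04 to 179 CPM, both lowest in saline 1. Of the other lists, the endothelial marker Rgs5, the neutrophil markers S100a8, S100a9 and Retnlg, and the lymphocyte markers Cd3e, Cd3g and Nkg7 were at 0 in all libraries. Ethanol 2 and saline 1 stood apart from the rest: ethanol 2 was the highest library for 22.6% of all genes tested and the lowest for 25.6%, saline 1 for 11.4% and 14.1%, and no other library exceeded 10.5%. The middle field of each library's name, called the suffix here, was 5 for saline 3, saline 4, ethanol 1 and ethanol 2, 6 for saline 2, saline 5, ethanol 3 and ethanol 4, and X for saline 1. The labels do not say what it stands for. It nearly follows age, since saline 4 is the only younger mouse with suffix 5.

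Per kilobase of the longest coding transcript, the 3 most abundant of the 34 genes were Hspa8, the constitutive HSP70 chaperone (236 CPM per kb), Rhob, a small GTPase that turns over quickly (225 CPM per kb), and Hsp90ab1, the constitutive HSP90 (209 CPM per kb). Junb, Btg2 and Jun followed at 134, 121 and 104 CPM per kb. Fos, the gene most often used as a sign of recent stimulation, ranked only 21 of 34 at 2.84 CPM per kb. The inducible HSP70 genes Hspa1b and Hspa1a ranked 24 and 28, and Egr3, Hspb1 and Fosb were the 3 lowest. On this scale Jun, its partner in the AP-1 dimer, was far above Fos in these sorted cells.

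**Figure D1:**
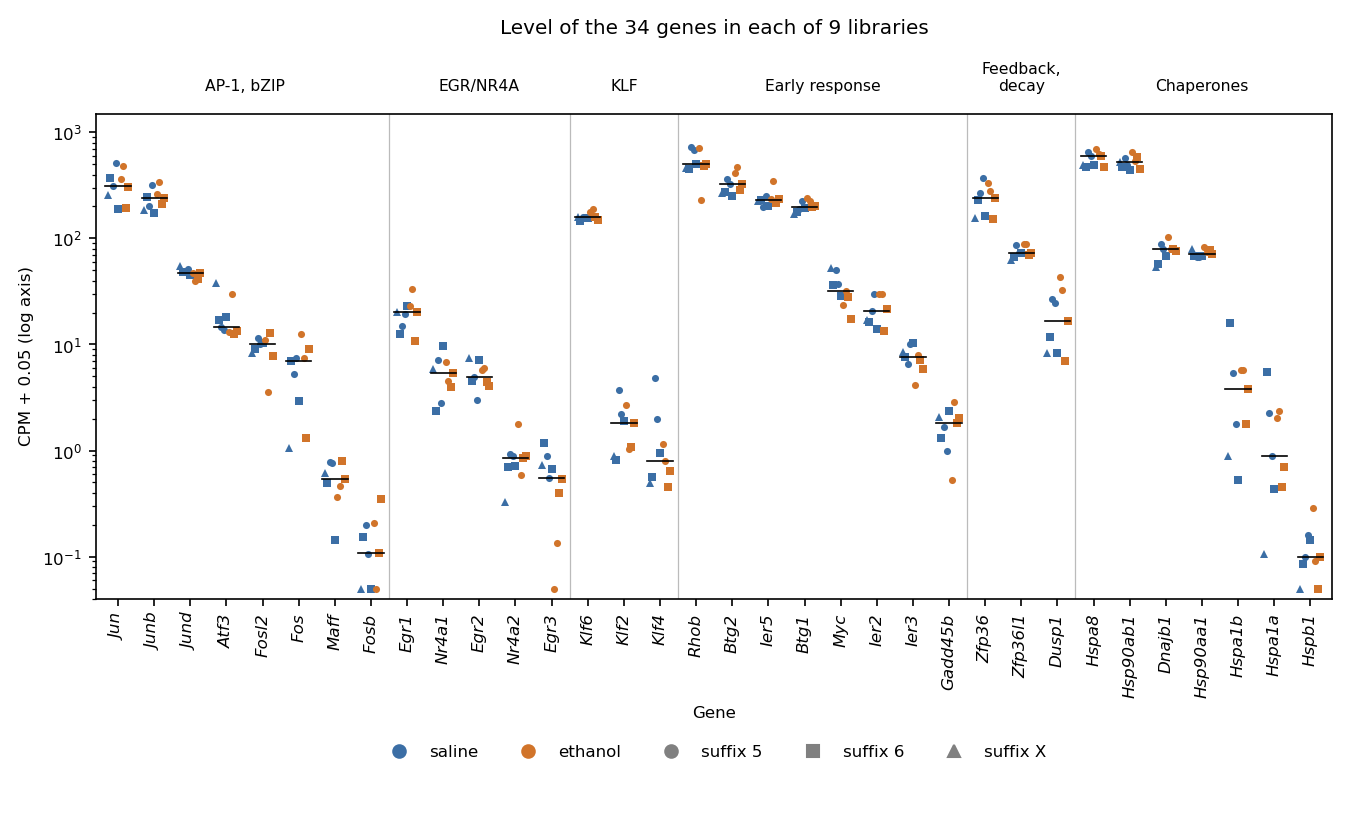
Level of each of the 34 genes in each of the 9 libraries, as CPM + 0.05 on a log axis, with genes grouped by role and ordered by mean level. Blue is saline and orange ethanol, the symbol gives the suffix of the library name, and the line is the median of 9. Genes such as Hspa8 and Klf6 sit in tight clusters, while Fos, Dusp1, Hspa1a and Hspa1b are spread widely.

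Among the AP-1 and related bZIP factors, Fos, on chromosome 12 (GRCm38 12, 85473890 to 85477273), had 1.01, 6.97, 5.21, 7.36 and 2.89 CPM in saline mice 1 to 5 and 12.6, 7.42, 1.26 and 9.09 CPM in ethanol mice 1 to 4. Saline 1 and ethanol 3 were lowest and ethanol 1 highest, and the ranges of the treatment groups overlapped. Behind these levels lay 18 to 202 counts. Jun, the most abundant member of the group by mean CPM, had 258, 371, 314, 509.9 and 188 CPM in the saline mice and 363, 481, 194 and 307 CPM in the ethanol mice. Jund, a family member known for its steady expression, had 54.3, 47.7, 47.9, 52.0 and 44.7 CPM in saline and 47.6, 39.8, 41.7 and 47.4 CPM in ethanol. It was the most even of the group, with a coefficient of variation (CV) over the 9 mice of 9.69% against 63.6% for Fos. Atf3, a stress-induced factor that dimerises with Jun proteins, had 38.3, 17.0, 14.6, 13.7 and 18.1 CPM in saline and 13.2, 29.7, 12.6 and 13.4 CPM in ethanol. Only saline 1 and ethanol 2 were above 20 CPM. Junb ranged from 173 to 341 CPM, Fosl2 from 3.48 to 12.8 CPM and Maff from 0.0948 to 0.745 CPM. Fosb had 0 to 6 counts a library.

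Of the EGR zinc finger factors and the NR4A orphan nuclear receptors, Egr1 was the most abundant, with 20.1, 12.6, 15.0, 19.1 and 23.2 CPM in saline and 22.8, 33.5, 10.7 and 20.3 CPM in ethanol. Both its highest and its lowest value came from ethanol mice. Egr2 had 7.46, 4.52, 4.86, 2.93 and 7.16 CPM in saline and 5.72, 5.89, 4.36 and 4.05 CPM in ethanol. Egr3, on chromosome 14 (70077203 to 70082614), is a calcium-responsive member of the family and had 0.673, 1.14, 0.835, 0.498 and 0.616 CPM in saline and 0, 0.0829, 0.344 and 0.494 CPM in ethanol. Every ethanol mouse lay below every saline mouse, though saline 4 and ethanol 4 were nearly equal, at 9 and 10 counts. Egr3 counts were 0 to 33 a library, so its values carry a large counting error. Nr4a1 ranged from 2.31 to 9.53 CPM and Nr4a2 from 0.280 to 1.75 CPM.

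Klf6 was the most abundant Kruppel-like factor, with 159, 144, 159, 159 and 156 CPM in saline and 177, 189, 158 and 150.4 CPM in ethanol, a CV of 8.39%. Klf4, which restrains inflammatory genes in macrophages, was its opposite at a CV of 109.8%: it had 0.448, 0.517, 4.76, 1.94 and 0.901 CPM in saline and 1.11, 0.746, 0.401 and 0.593 CPM in ethanol. Saline 3 alone held 97 of the 225 Klf4 counts. Klf2, the closest relative of Klf4, ranged from 0.759 to 3.68 CPM and was also highest in saline 3.

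In the group of early response, growth and stress genes, Rhob had 465.8, 452, 732, 681 and 505 CPM in saline and 706, 232, 477 and 499 CPM in ethanol. Ethanol 2 lay far below the next lowest library. Myc, the growth-promoting factor on chromosome 15 (61985391 to 61990374), had 52.9, 36.5, 49.8, 37.0 and 28.7 CPM in saline and 23.5, 31.6, 28.1 and 17.4 CPM in ethanol. Of the ethanol mice only ethanol 2 lay above the lowest saline mouse. Btg2, an antiproliferative gene that recruits mRNA deadenylases, ranged from 253 to 476 CPM and its relative Btg1 from 169 to 238 CPM. Ier5, which acts on heat shock factor, ranged from 198 to 347 CPM, Ier2 from 13.3 to 30.1 CPM, Ier3 from 4.13 to 10.4 CPM, and the stress sensor Gadd45b from 0.476 to 2.82 CPM.

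Dusp1, the phosphatase that inactivates p38 and JNK, had 8.30, 11.8, 27.1, 24.5 and 8.25 CPM in saline and 43.3, 32.5, 6.99 and 16.8 CPM in ethanol. Saline 1, saline 5 and ethanol 3 were low, and saline 3, saline 4, ethanol 1 and ethanol 2 were high. Zfp36, tristetraprolin, which destroys mRNAs with AU-rich elements, had 157, 231, 270.1, 368 and 164 CPM in saline and 332, 277, 154 and 239 CPM in ethanol. Its relative Zfp36l1 had 62.4, 66.6, 86.5, 72.5 and 72.2 CPM in saline and 88.4, 88.7, 70.4 and 72.2 CPM in ethanol. The same 4 libraries were the highest for all 3 genes.

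The chaperones held both even and very uneven members. Hspa8 had 488, 471, 654, 594 and 491 CPM in saline and 704, 618, 595 and 468 CPM in ethanol. Hsp90ab1 had 525, 476, 571, 493.3 and 439.8 CPM in saline and 651, 541, 586 and 449.6 CPM in ethanol. Dnajb1, the HSP40 partner of HSP70, had 53.4, 57.9, 88.7, 79.7 and 68.3 CPM in saline and 104, 79.7, 79.6 and 75.6 CPM in ethanol. These 3 genes kept within 1.94 times from the lowest to the highest library. Hsp90aa1 ranged from 66.1 to 83.8 CPM. The inducible Hspa1a had 0.0561, 5.41, 2.21, 0.830 and 0.379 CPM in saline and 1.98, 2.32, 0.401 and 0.642 CPM in ethanol, or 1 count in saline 1 and 157 in saline 2. Hspa1b had 0.841, 15.7, 5.35, 1.72 and 0.474 CPM in saline and 5.72, 5.72, 1.72 and 3.76 CPM in ethanol. Both were highest in saline 2, and Hspa1b spanned 33.2 times from saline 5 to saline 2. Hspb1, a small heat shock protein, had 0 to 3 counts a library.

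Hspa1a (17, 34969190 to 34972156) and Hspa1b (17, 34956436 to 34959238) are near copies that lie side by side on the minus strand, and 58.8% of the 50-base words of the Hspa1a transcript also occur in Hspa1b, so counts may have been split between them. The 250 bases before their RefSeq start sites (chr17:34972157-34972406 and chr17:34959239-34959488, minus strand, GRCm38.p6) are identical at 247 of 250 positions and are shown for that reason, with the heat shock element GAANNTTC in capitals.
Hspa1a: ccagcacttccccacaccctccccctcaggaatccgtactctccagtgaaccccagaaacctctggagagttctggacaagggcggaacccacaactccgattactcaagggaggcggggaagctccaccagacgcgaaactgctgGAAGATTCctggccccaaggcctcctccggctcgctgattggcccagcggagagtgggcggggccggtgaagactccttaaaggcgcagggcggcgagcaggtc
Hspa1b: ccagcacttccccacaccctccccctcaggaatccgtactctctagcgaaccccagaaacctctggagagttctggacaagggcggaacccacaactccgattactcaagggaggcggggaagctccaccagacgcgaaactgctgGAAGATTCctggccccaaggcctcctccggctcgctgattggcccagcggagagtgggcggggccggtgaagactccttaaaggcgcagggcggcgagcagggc
That element ended 96 bases before the start site in both. It was found on either strand in 7.86% of the 32851 RefSeq promoter windows of the same length (250 bases before to 50 after the start) and, of 27 members with a window, in Hspa1a, Hspa1b, Hspb1, Jun and Fosl2. Egr1, Egr3, Ier2, Myc, Hspa8, Hsp90aa1 and Hsp90ab1 had no window. Other members also share sequence: 74.8% of the 50-base words of Hspa8 and 58.5% of those of Hsp90aa1 occur in another gene, mostly Gm15459 and Gm12346. Of Jund 48.3% and of Zfp36l1 56.9% occur elsewhere, mostly in the antisense genes Gm11175 and Gm26669, and strand use in counting is not given, so their levels are uncertain to that extent.

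The first comparison asked whether the genes differed in adolescence after neonatal ethanol. By edgeR's quasi-likelihood test with Benjamini-Hochberg adjustment none of the 32 tested members passed 0.05 (smallest adjusted p = 0.963, edgeR), nor did any of the 13067 genes tested (0% called). At an unadjusted p under 0.05, 2 of 32 members were counted, both lower in ethanol, against 386 genes or 2.95% of all (1.42% higher and 1.54% lower). DESeq2 and limma-voom also called 0 genes, with 435 and 512 under an unadjusted 0.05. Of the members 18 lay above 0 and 14 below, and their log2 fold changes had a median of 0.09 against -0.00068 for all genes. In the same comparison 6 of 7 tested neuron markers and 7 of 7 astrocyte markers lay above 0, none of them under an unadjusted 0.05, and their part in these values was not tested.

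The 2 genes were Egr3 and Myc. Egr3 averaged 0.752 ± 0.248 CPM (SD, n = 5) in saline and 0.230 ± 0.229 CPM (SD, n = 4) in ethanol, or -1.65 on the log2 scale (SE 0.657, adjusted p = 0.963, edgeR). It was the 1 member whose groups did not overlap, a pattern seen in 1.29% of all genes (0.628% lower). Its difference was -1.31 without ethanol 1, -1.33 without ethanol 2, and -1.36 without both saline 1 and ethanol 2, and in all 3 cases it was no longer under an unadjusted 0.05. Without saline 2, 3 or 5 it did not pass the count filter. Myc averaged 41.0 ± 10.1 CPM (SD, n = 5) in saline and 25.2 ± 6.12 CPM (SD, n = 4) in ethanol, a log2 fold change of -0.70 (SE 0.210, adjusted p = 0.963, edgeR), and it lay between -0.84 and -0.56 with each library left out.

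The rest of the members overlapped between the groups. Fos averaged 4.69 ± 2.71 CPM in saline (SD, n = 5) and 7.60 ± 4.75 CPM in ethanol (SD, n = 4), and the 95% interval of its log2 fold change, -0.68 to 2.04, spans both directions. Intervals that wide also held Hspa1a (-2.52 to 1.64), Hspa1b (-2.12 to 1.69) and Klf4 (-2.83 to 0.28). Evenly expressed members were bounded more closely: Jund lay between -0.37 and 0.04, Klf6 between -0.06 and 0.30, and Hsp90aa1 between -0.05 and 0.32. For 20 of the 32 members the whole interval stayed within a 2-fold change, a smaller share than the 10356 of all 13067 genes. The signs of Hspa1a and Hspa1b rested on saline 2, since without it their log2 fold changes became 0.61 and 1.01. In the early response group the next smallest p-values belonged to Btg2 (log2 fold change 0.33, SE 0.157) and Ier3 (-0.45, SE 0.216), in the chaperones to Dnajb1 (0.28, SE 0.155), and all 3 had an adjusted p of 0.963 by edgeR.

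**Figure D2:**
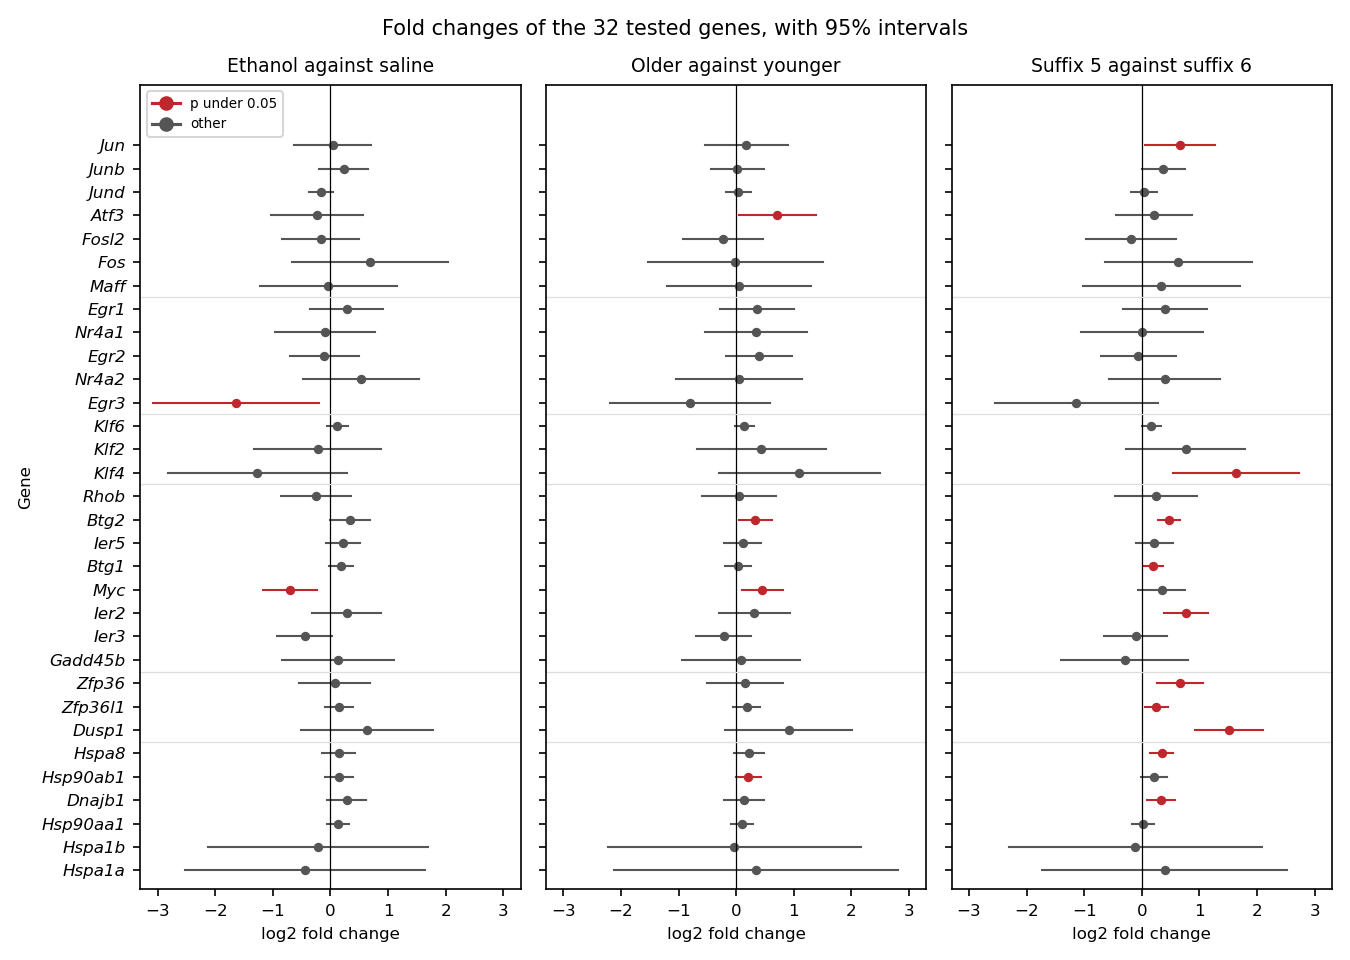
Log2 fold change and 95% interval of the 32 tested genes in 3 comparisons, with genes in rows grouped by role and red marking an unadjusted p under 0.05. Red points number 2 for ethanol, 4 for age and 10 for the suffix, and all 10 of the last lie above 0.

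Older mice were compared with younger mice with ethanol as a covariate. No member and no other gene was called by edgeR (0% called, smallest adjusted p = 0.973), and DESeq2 and limma-voom called 0 as well, with 451 and 439 genes at an unadjusted p under 0.05. At that unadjusted level edgeR counted 372 genes, 2.85% of all and 1.09% in the higher direction, and 4 of 32 members, all higher in the older mice. These were Atf3 (log2 fold change 0.71, SE 0.297), Myc (0.45, SE 0.160), Btg2 (0.33, SE 0.129) and Hsp90ab1 (0.21, SE 0.0950), each with an adjusted p of 0.973. Of the 32 members 27 lay above 0, with a median of 0.15 against -0.02 over all genes, where 5904 of 13067 lay above 0. No member had groups that did not overlap, against 1.24% of all genes (0.643% higher and 0.597% lower). All 7 neuron and all 7 astrocyte markers tested lay below 0 in the older mice, 1 of them (Snap25) under an unadjusted 0.05, and their part in the result was not tested.

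Atf3 averaged 23.9 ± 12.2 CPM in older mice (SD, n = 4) and 15.0 ± 2.43 CPM in younger mice (SD, n = 5). The 2 high values were those of saline 1 and ethanol 2, both older, and without these libraries the log2 fold change was -0.08. Without the same 2 libraries 8 members were higher and 1 was lower at an unadjusted p under 0.05, as 710 of 13247 genes were in either direction, and 3 genes were called, none of them a member. Fos averaged 6.56 ± 4.84 CPM in older mice (SD, n = 4) and 5.51 ± 3.29 CPM in younger mice (SD, n = 5), and the fitted difference of -0.01 on the log2 scale (SE 0.677) became 0.50 without saline 1. Without that library the Atf3 difference was 0.37. Dusp1 averaged 27.8 ± 14.6 CPM (SD, n = 4) against 13.7 ± 7.15 CPM (SD, n = 5), with a log2 fold change of 0.91 (SE 0.493, adjusted p = 0.973, edgeR).

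The interaction of ethanol with age cohort, the test of whether the ethanol difference itself differed with age, called 0 genes (0%), with 423 or 3.24% of all at an unadjusted p under 0.05 (1.32% higher and 1.91% lower). DESeq2 called 1 gene and limma-voom 0. Without ethanol 1 the only older ethanol mouse is ethanol 2, so that fit rests on 1 library in this group. The Ier5 interaction was then 0.76, against 0.47 with all 9 libraries. DESeq2 and limma-voom counted 442 and 585 genes at an unadjusted p under 0.05. Egr3 was the 1 of 32 members under the unadjusted threshold, with an interaction of -2.86 (SE 1.19, adjusted p = 0.972, edgeR). That value rests on 0 and 2 counts in the older ethanol mice, and it was -2.22 without ethanol 1 and -6.05 without ethanol 2. Junb came next with an interaction of 0.76 (SE 0.337, adjusted p = 0.972, edgeR). The Fos interaction was 1.81 with an SE of 1.26, and it ran from 1.01 (without ethanol 3) to 3.85 (without ethanol 4) with each library left out.

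More members stood below the unadjusted threshold for the library-name suffix than for ethanol or age. This comparison was added after the values were seen, and it set the 4 libraries with suffix 5 against the 4 with suffix 6, each holding 2 saline and 2 ethanol mice, with ethanol as a covariate. Saline 1, with suffix X, was left out. At an unadjusted p under 0.05 edgeR counted 10 of 32 members, all higher with suffix 5, against 994 of 13001 genes or 7.65% (3.75% higher and 3.89% lower). Of the members 26 lay above 0, with a median of 0.29 against -0.02 over all genes. No gene was called after adjustment by edgeR (0%, smallest adjusted p = 0.221). DESeq2 called 50 genes, among them Dusp1, Btg2 and Ier2, limma-voom called 17, among them Dusp1, and edgeR without ethanol 2 called 55, among them Btg2, Rhob and Dnajb1. At an unadjusted p under 0.05 DESeq2 and limma-voom counted 1059 and 1416 genes.

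Of the members whose groups did not overlap, Dusp1 had the largest fold change, with 31.8 ± 8.32 CPM for suffix 5 (SD, n = 4) and 10.96 ± 4.37 CPM for suffix 6 (SD, n = 4), a log2 fold change of 1.51 (SE 0.261, adjusted p = 0.308, edgeR). The lowest suffix 5 library had 24.5 CPM and the highest suffix 6 library 16.8 CPM. Btg2 averaged 396 ± 63.8 CPM against 284 ± 31.2 CPM (SD, n = 4 each), a log2 fold change of 0.47 (SE 0.0853, adjusted p = 0.308, edgeR). Zfp36 averaged 312 ± 46.7 CPM against 197 ± 44.5 CPM (SD, n = 4 each), a log2 fold change of 0.66 (SE 0.175, adjusted p = 0.559, edgeR). With Zfp36l1 (0.25) all 3 feedback and decay genes were under the unadjusted threshold. The others were Klf4 (1.64), Ier2 (0.76), Jun (0.66), Hspa8 (0.34), Dnajb1 (0.33) and Btg1 (0.19). The groups did not overlap for Dusp1, Btg2, Zfp36, Zfp36l1, Dnajb1 and Klf6, 6 of 32 members, while 5.39% of all genes did not overlap (3.13% higher and 2.26% lower). The lowest suffix 5 and highest suffix 6 libraries nearly met for Dnajb1 (79.726 and 79.609 CPM) and Zfp36l1 (72.533 and 72.206 CPM). They nearly met too for Btg2 (329.3 and 326.96 CPM) and Klf6 (159.05 and 158.01 CPM). No EGR or NR4A gene was under the threshold. The Fos difference was 0.63 on the log2 scale (SE 0.551), and those of the inducible Hspa1a and Hspa1b were 0.40 (SE 0.923) and -0.11 (SE 0.948).

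**Figure D3:**
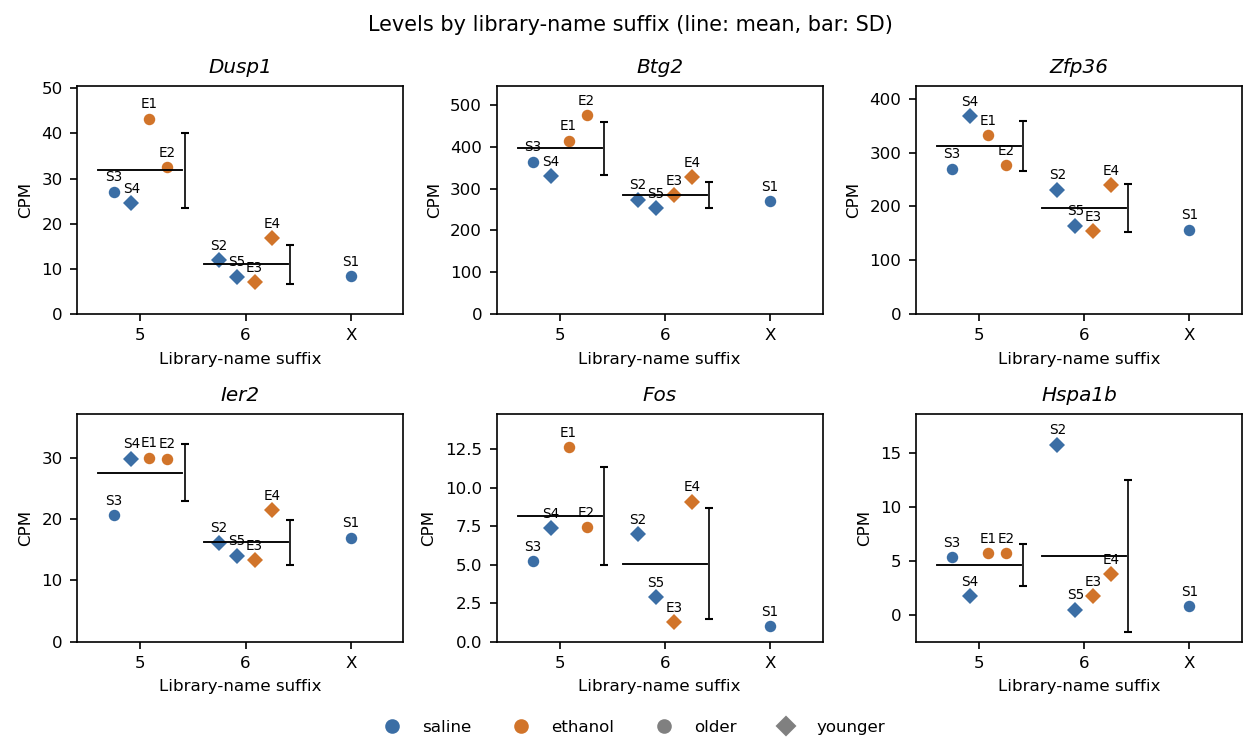
CPM of 6 members in every library (S1 to S5 saline, E1 to E4 ethanol), set out by the suffix of the library name, with circles for older and diamonds for younger mice, the mean as a line and the SD as a bar. Dusp1, Btg2 and Zfp36 separate suffix 5 from suffix 6, though for Btg2 the groups nearly meet (329.3 and 326.96 CPM). For these genes S4, a younger mouse, lies above the suffix 6 mice, and S1, an older one, sits low.

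Age and suffix part company in 2 mice. Saline 4, a younger mouse with suffix 5, was above all 4 suffix 6 libraries for 9 of the 10 members, though it is 1 of the libraries in the contrast that picked them. For Dusp1, Btg2, Zfp36, Zfp36l1 and Dnajb1 this was fixed in advance, since their suffix groups did not overlap. Saline 1, an older mouse that the contrast did not use, was below all 4 suffix 5 libraries for all 10, and at or below the highest suffix 6 library for all 10. Its suffix is X, so it belongs to neither group, and the same counts were not made over all genes. Dusp1 in saline 1 was 8.30 CPM and Btg2 270.2 CPM. Saline 1 also had the fewest sorted cells (8923 against 9291 to 19071) and the lowest neuron and astrocyte marker levels, and the part of these in its low values was not tested. With age in days as a covariate 7 of 32 members and 446 of 13001 genes had an unadjusted p under 0.05, and edgeR called 0. Markers of other brain cells lay mostly on the other side: below 0 were 7 of 7 neuron markers (2 under an unadjusted 0.05), 6 of 7 astrocyte markers (0) and 4 of 5 oligodendrocyte markers (2). The neuron sums were 27.6 to 55.5 CPM for suffix 5 and 45.8 to 91.1 CPM for suffix 6, and the oligodendrocyte sums 200.2 to 230.0 and 223 to 252 CPM. Their part in the result was not tested.

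The promoters of Dusp1, Btg2 and Zfp36 are shown because these genes had the smallest p-values by suffix with groups that did not overlap. The 250 bases before the RefSeq start sites are given (Dusp1 chr17:26508473-26508722, Btg2 chr1:134079156-134079405, Zfp36 chr7:28379229-28379478, all minus strand, GRCm38.p6), with the cyclic AMP response element TGACGTCA in capitals in Dusp1 and Btg2, and the CArG box, the serum response factor motif, in Zfp36.
Dusp1: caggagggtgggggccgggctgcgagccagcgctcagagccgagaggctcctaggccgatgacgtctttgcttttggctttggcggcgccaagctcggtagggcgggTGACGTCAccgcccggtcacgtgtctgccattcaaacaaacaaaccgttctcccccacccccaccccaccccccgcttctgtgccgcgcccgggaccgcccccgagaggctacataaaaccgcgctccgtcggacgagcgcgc
Btg2: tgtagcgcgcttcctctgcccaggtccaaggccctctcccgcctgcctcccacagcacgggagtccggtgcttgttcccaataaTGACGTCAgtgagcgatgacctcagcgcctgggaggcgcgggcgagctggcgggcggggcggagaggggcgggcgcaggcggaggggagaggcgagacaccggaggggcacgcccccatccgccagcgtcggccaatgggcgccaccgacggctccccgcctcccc
Zfp36: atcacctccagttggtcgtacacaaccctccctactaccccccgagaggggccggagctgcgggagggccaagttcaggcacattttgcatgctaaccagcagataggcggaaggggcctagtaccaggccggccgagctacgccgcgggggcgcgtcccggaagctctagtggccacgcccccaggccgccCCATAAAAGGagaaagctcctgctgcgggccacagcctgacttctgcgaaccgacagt
The response element ended 135 bases before the start site in Dusp1 and 158 bases before it in Btg2. Read on both strands, it was found in 1.79% of the 32851 promoter windows and in 3 of the 27 members with a window, the third being Maff. The CArG box ended 48 bases before the Zfp36 start site and was found in 1.63% of windows, and among members in Zfp36 and Egr2. Fos held a TATA box (TATAAA) that ended 27 bases before its start, found in 13.6% of windows. The AP-1 site TGANTCA was found in 7.81% of windows and in 1 of the 27 members, Zfp36l1. The other arrangement of the heat shock element, TTCNNGAA, was found in 8.52% of windows and in 1 of the 27 members, Egr2. Only the letter patterns named here and for the HSP70 genes above were searched, within the window. Variant or more distant sites were not looked for in any gene. A match of letters is a description of the sequence only.

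The members varied more between mice than most genes of their level. The biological coefficient of variation (BCV), edgeR's estimate of the variation between libraries beyond counting error, lay above the trend of all genes at the same level for 21 of 32 members (65.6%) and for 29% of all genes tested. It was over 1.5 times the trend for 10 members (31.2%) and for 8.06% of all genes. The median CV was 32.1% for the members, 16.1% for all genes and 10.9% for 12 homeostatic microglia genes such as P2ry12 and Csf1r. Some other lists also lay mostly above the trend: 5 of 6 dissociation cytokines (median CV 41.3%), 4 of 4 ERK feedback genes (26.0%), 7 of 7 neuron markers (67.4%) and 7 of 7 astrocyte markers (61.8%). Other immediate early genes (7 of 16, 43.8%), other heat shock genes (5 of 11, 45.5%) and upstream kinases and factors (5 of 14, 35.7%) did not.

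Dusp1 stood at 3.01 times the trend, Hspa1b 2.85, Fos 2.34, Hspa1a 2.22, Jun 2.10 and Atf3 2.07 times. Zfp36, Rhob, Egr1 and Ier2 were the others above 1.5 times. At the low end Hsp90aa1 (0.719), Klf6 (0.727) and Jund (0.731) varied less than the trend. Within the HSP70 genes Hspa1b and Hspa1a were far above the trend and the constitutive Hspa8 was near it (1.03), and within AP-1 Fos and Jun were above it and Jund below. For Rhob the outlying library was ethanol 2, and for Atf3 they were saline 1 and ethanol 2.

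**Figure D4:**
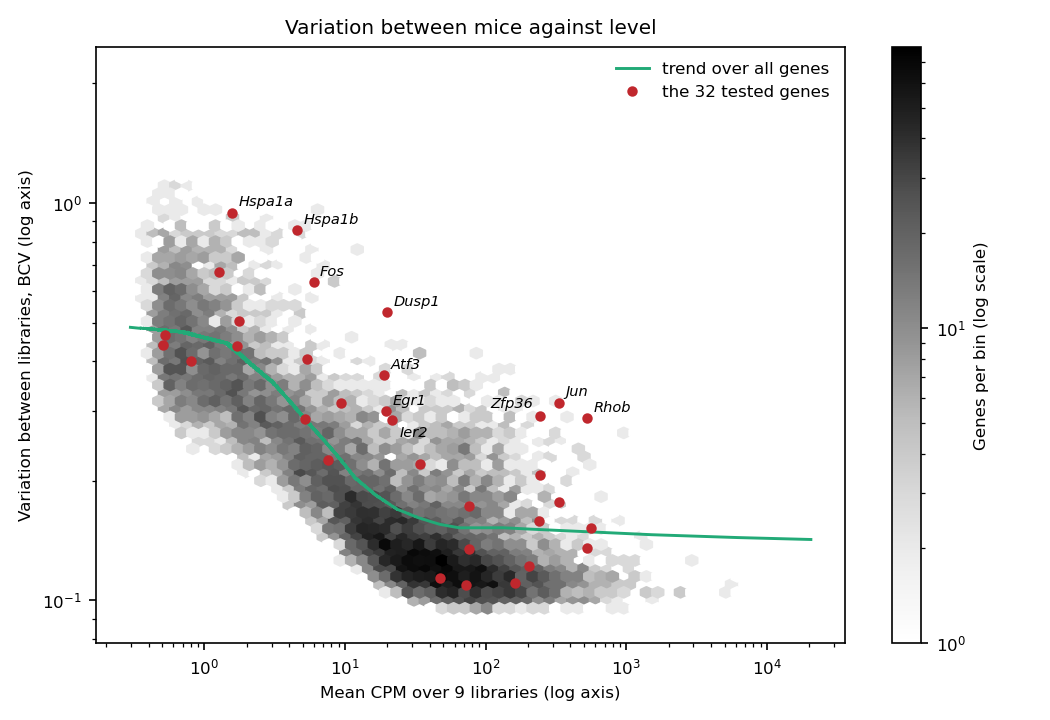
Variation between libraries (BCV) against mean CPM, both on log axes, with all 13067 tested genes as shaded bins, the trend as a green line and the 32 members as red points. The members more than 1.6 times above the trend are named, and Dusp1 and Hspa1b are farthest from it.

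No single mouse was high for all members. Ethanol 1 was the highest library for 9 of 32 members (28.1%, against 8.78% of all genes) and ethanol 2 for 7 (21.9%, against 22.6%). Saline 1, saline 5 and ethanol 3 were each the lowest for 6 (18.8%, against 14.1%, 7.81% and 8.46%). Ethanol 4 was the highest for none. The summed level of the 34 genes ran from 3160 CPM in saline 5 to 4594 CPM in ethanol 1.

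Covariation over the 9 mice was tested for 24 pairs, on log2(CPM + 1) by exact permutation of 1 member against the other, two-sided, with Benjamini-Hochberg adjustment over the 24. By Pearson's r 4 pairs passed 0.05 and 7 were under 0.05 unadjusted, and by Spearman's rho 1 passed, Hspa1a with Hspa1b. Fos and Zfp36 had r = 0.87 (exact p = 0.00343, adjusted 0.0274) and rho = 0.78 (exact p = 0.0172, adjusted 0.0827), and r was 0.73 (exact p = 0.0692) without the 2 mice farthest from the Fos median. Fos and Dusp1 had r = 0.82 (exact p = 0.00653, adjusted 0.0392) and rho = 0.78 (exact p = 0.0172, adjusted 0.0827), with r = 0.70 (exact p = 0.0722) without those 2 mice. Those 2 were saline 1 and ethanol 3, the lowest in Fos, and without them neither relation was under 0.05.

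Klf2 and Klf4 had r = 0.85 (exact p = 0.00155, adjusted 0.0186) and rho = 0.83 (exact p = 0.00827, adjusted 0.0827), with r = 0.73 (exact p = 0.0530) without saline 2 and saline 3. The copies Hspa1a and Hspa1b had r = 0.94 (exact p = 0.000328, adjusted 0.00787) and rho = 0.92 (exact p = 0.00131, adjusted 0.0315), with r = 0.87 (exact p = 0.0127) without saline 2 and ethanol 2. They share sequence and possibly reads. Without saline 1 and ethanol 2 none of the 24 pairs passed with 7 mice left, though r was still 0.93 for Hspa1a with Hspa1b, 0.85 for Klf2 with Klf4, 0.83 for Fos with Zfp36 and 0.81 for Fos with Dusp1. Fos with Egr1 reached r = 0.36 (exact p = 0.349) and rho = 0.43 (exact p = 0.250), and Fos with Hspa1a r = 0.63 (exact p = 0.0710) and rho = 0.55 (exact p = 0.133). Jun with Atf3 reached r = 0.05 (exact p = 0.900) and rho = 0.03 (exact p = 0.948). The number of sorted cells and the RNA integrity number were each set against Fos, Egr1, Hspa1a and Hspa8, and none of these 8 relations was under 0.05 (smallest exact p = 0.125 for r and 0.102 for rho).

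**Figure D5:**
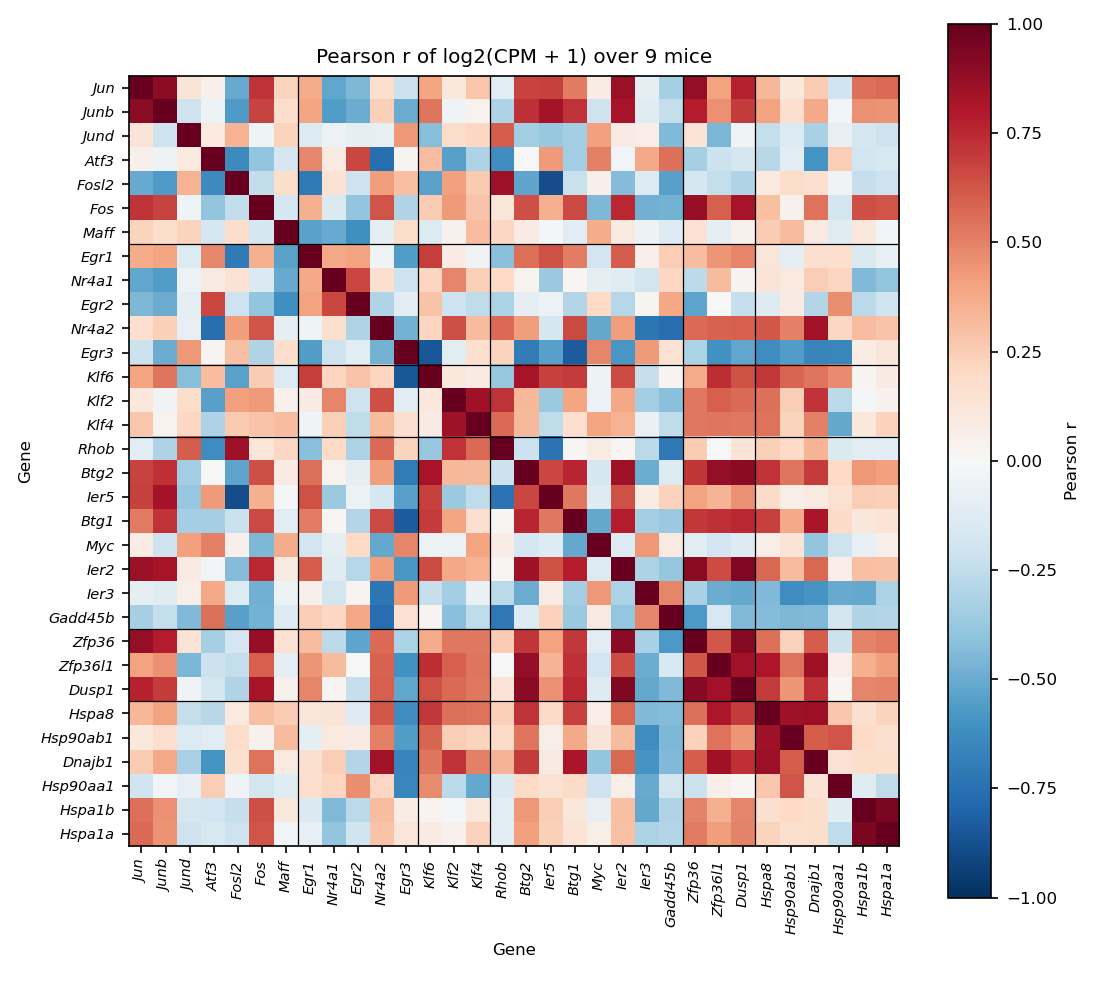
Pearson r of log2(CPM + 1) over the 9 mice for every pair of the 32 tested genes, red for positive and blue for negative, with lines between the roles. Jun, Junb, Fos, Ier2, Btg2, Zfp36 and Dusp1, which lie in different roles, are red with one another, and Btg1 and Zfp36l1 are red with all of them. Egr2, Egr3, Nr4a1, Myc and Ier3 are near 0 or blue with these genes.

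As a description over all 496 pairs of members, the median r was 0.12 and 46 pairs (9.27%) exceeded 0.7, against 4.35% of all gene pairs. After Hspa1a with Hspa1b the largest were Ier2 with Dusp1 (0.92), Dusp1 with Zfp36 (0.91), Btg2 with Dusp1 (0.90), Ier2 with Zfp36 (0.90) and Jun with Junb (0.90). Egr3 ran against Klf6 (-0.85) and Btg1 (-0.84), and Fosl2 against Ier5 (-0.89, but -0.44 without saline 1 and ethanol 2). Chaperones and the other members shared 6.41% of pairs above 0.7. All of these share the same 9 libraries, and genes are not independent replicates. The 5 genes outside the lists most like Fos among 8400 with a mean of at least 10 CPM were Arl13b (r = 0.92), Gm10382 (0.92), Pcmtd1 (0.91), E4f1 (0.90) and Mum1 (0.89), each over 9 mice. All 5 were closer to Fos than Zfp36, its nearest member.

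The genes around the pathway give the setting. These lists, here and in the next paragraph, were chosen with earlier results of these data known. Their shares are therefore a description and cannot test for an excess. Of 20 other immediate early genes 16 were tested, with 4 higher and 2 lower in ethanol at an unadjusted p under 0.05 (37.5%, against 2.95% of all). None of them was called after adjustment. Ppp1r15a, which restores translation after stress, had the smallest p (log2 fold change 0.41, SE 0.118, adjusted p = 0.963, edgeR), and Sgk1, a serum and glucocorticoid kinase and the most abundant at 875 CPM, had 0.30 (SE 0.133). For age 2 were higher, Sgk1 (0.30, SE 0.104) and Rgs1 (0.73, SE 0.311). By suffix 3 were higher and 1 was lower, and Rgs1, a regulator of G protein signals, had the smallest p of all 13001 genes (1.09, SE 0.138, adjusted p = 0.221, edgeR).

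Of 12 other heat shock genes 11 were tested, and 0 were under the unadjusted threshold for ethanol or for age. By suffix, where 7.65% of all genes were under it (3.75% higher), 7 of the 11 were, all higher with suffix 5: Hsph1 (log2 fold change 1.00), Chordc1 (0.56), Dnaja1 (0.54), Cacybp (0.43), Stip1 (0.42), Hspe1 (0.30) and Ahsa1 (0.30). Of 14 upstream kinases and factors, among them Mapk14, Creb1 and Hsf1, 0 were under the threshold for ethanol, age or suffix. Of 7 dissociation cytokines 6 were tested and likewise 0 were. Il1a was the most abundant of them at 115 CPM. Of 8 ERK feedback genes 4 were tested. Dusp6, a phosphatase that inactivates ERK, was lower in ethanol without overlap (-0.67, SE 0.175, adjusted p = 0.963, edgeR) and higher with suffix 5 (0.45, SE 0.0992), whereas Spred1 (-0.46) and Spred2 (-0.76) were lower with suffix 5. Of 12 homeostatic genes 0 were under the threshold for age or suffix.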

How the data were processed

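The authors deposited 1 table of raw counts per gene symbol for 9 libraries, 1 per mouse. Per the submitters' processing notes, Trimmomatic 0.32, STAR 2.4.2a and HTSeq 0.6.1 were used with GRCm38.p4, and settings, annotation release and strand use were not named. Reads shared by copies or overlapping genes can therefore be lost or misplaced. Each library is a separate mouse, so the spread includes animal, sort and library.

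Genes were kept by filterByExpr (minimum count 10, minimum total 15), scaled by TMM and tested with edgeR 4.0.16 (quasi-likelihood F test, robust) in R 4.3.3, with Benjamini-Hochberg adjustment over all genes tested and a threshold of 0.05. Ethanol was tested without covariates and age (older from day 33) with ethanol as covariate. The interaction had both terms. The suffix comparison and its alternatives were added after the values were seen. DESeq2 1.42.0 and limma-voom (limma 3.58.1), other filters and scaling, and each library left out were alternatives. Correlations used scipy 1.17.1. Lengths and positions came from GENCODE M21 and promoters from RefSeq (GRCm38.p6). In simulated counts the ethanol fit recovered 90 of 100 genes changed by 1 on the log2 scale and 100 of 100 changed by 2, among 12846 genes. It also called 6 genes that had not been changed. In the real counts 10 of 32 members varied over 1.5 times the trend, so these shares need not hold for them. In the ethanol comparison Fos had an SE of 0.613 and Hspa1a of 0.937 on the log2 scale.

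The members and lists were chosen with earlier results of these data known. Every-library values are given for Fos, Egr1, Egr3, Hspa1a, Hspa1b and, in each role group, the members with the highest mean, the smallest p for ethanol and for age, and the largest variation relative to trend, as well as members whose groups did not overlap. From other lists the highest mean, smallest p and members past the threshold were named, and further names were chosen after their values were seen.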

Additional observations from a re-analysis of the deposited data

Results flagged for a closer look

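In 64 groups of 4 or 5 mice, 6 held a value far from the others by Dixon's ratio (gap to the nearest mouse over the range of the group). Chance alone gives about 1 in 20. Atf3 in saline 1 was 38.3 CPM, and the next highest saline mouse had 18.1 CPM (ratio 0.824). Atf3 in ethanol 2 was 29.7 CPM, with 13.4 CPM next (0.948). Ier5 in ethanol 2 was 347 CPM, with 234 CPM next (0.864). Hsp90aa1 in saline 1 was 79.7 CPM, with 68.8 CPM next (0.798). Dnajb1 in ethanol 1 was 104 CPM, with 79.7 CPM next (0.853). Klf6 in saline 2 was the 1 low value, at 144 CPM with 156 CPM next (0.75). Of the 6 values, 4 came from saline 1 or ethanol 2.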

How the results depend on the processing

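Of the fold changes followed, 255 of 267 alternatives for ethanol, 147 of 160 for age, 47 of 47 for the interaction and 179 of 194 for the suffix kept their direction and their side of the threshold. No followed gene passed the adjusted threshold in the main fits, so its side had little room to change. Size was not counted. The interaction was followed for 3 genes, and that of Egr3 ran from -6.05 to -2.22 with each library left out. The cause of the changes below was not tested. Numbers of genes called moved as follows. Ethanol gave 1 with the suffix as covariate and without saline 1 and ethanol 2 (Dusp6). Age gave 97 with no count filter, Atf3 and Dusp1 among them, and 3 without saline 1 and ethanol 2. The interaction gave 1 by DESeq2, 53 with no filter (Jun, Dusp1 and Zfp36 among them), and 0 to 848 with each library left out (848 without ethanol 1). The suffix gave 50 by DESeq2, 17 by limma-voom, 261 with no filter (8 members: Jun, Junb, Klf4, Ier2, Btg2, Dusp1, Zfp36 and Hspa8) and 0 to 55 with each library left out (55 without ethanol 2). Pairs past the threshold numbered 0 without saline 1 and ethanol 2 and 1 to 5 with each library left out, and members above the variation trend 20 to 23.

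Ethanol log2 fold changes turned in the younger mice alone for Fos (-0.14), Egr1 (-0.24) and Dusp1 (-0.31), in the older mice alone for Hspa1a (0.91) and Hspa1b (0.88), and by limma-voom for Egr1 (-0.0239) and Hspa1b (0.41). With each library left out they ran from -0.0109 to 0.51 for Egr1, from -0.89 to 0.61 for Hspa1a and from -0.51 to 1.01 for Hspa1b. The age difference of Fos was 0.42 by limma-voom, 0.58 without saline 1 and ethanol 2, 0.23 with no ethanol term, 0.63 with the suffix in place of age, and -0.50 to 0.50 with each library left out. For age, Atf3 was -0.0808 without saline 1 and ethanol 2, and Egr2 -0.0588 with the suffix in place of age. Rhob by suffix ran from -0.0238 to 0.55. Egr3 had no value under the stricter filter.

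The replicate numbers did not pair the mice: same-numbered saline and ethanol libraries correlated at -0.10 to 0.0003 in their deviations from the group means. With the replicate number as a block, 0 genes were called for ethanol, age and interaction (240, 801 and 268 at an unadjusted p under 0.05), Hspa1b for ethanol was 0.0508 and Fos for age 0.95. Counts of 0 to 33 limit Egr3, and Fosb and Hspb1 were too low to test.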
